A study of Mus musculus with 15 samples.

Results

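Met2 and Met1 are groups of mouse colon cancer organoids, cultured from liver metastases of the second and of the first round of a serial transplantation. Each group held 3 RNA-seq libraries, chosen by their sample titles, so that 6 of the 15 libraries of the series were compared across all genes. The label of every library gives the genotype AKP, which the labels do not spell out. Recipients were C57Bl6 mice with an intact immune system, per the labels and the series text. Organoids were grafted into the colon, metastases were taken from the liver, and the organoids grown from them were grafted again. The other 9 libraries were Met3 (metastases of the third round) and Primary2 and Primary3 (organoids of primary tumours of round 2 and of round 3), all of the same genotype and host. They entered the fit to estimate the spread and are named only where their levels bear on Met2 or Met1. The sources used here do not say whether the 3 libraries of a group came from separate mice, lines or cultures. The p-values measure the spread between libraries within groups, pooled over all 15 libraries, and that spread may be technical. All Met1 libraries are of round 1 and all Met2 libraries of round 2, so a change of the cells and a difference in how the libraries of each round were made cannot be told apart.

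The colon is lined by a single-layered epithelium that Wnt signalling renews from Lgr5-positive stem cells at the crypt base. Loss of Apc switches that pathway on without its ligands. Gata6, named in the title of the series, encodes a zinc-finger transcription factor that maintains intestinal epithelial identity, and Gata4 is its close relative of the proximal gut. Colon tumours that spread often express genes of fetal gut, of regenerating epithelium or of stratified squamous epithelium, the layered and cornifying type found in skin and oesophagus.

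Total counts ran from 18213726 to 21105296 in Met1 and from 14892932 to 16220780 in Met2. Expression is given as CPM, the counts scaled to a common library size with the factors of the trimmed mean method (TMM). Markers of intestinal epithelium were present in both groups. Epcam, the epithelial adhesion molecule, stood at 745 to 856 CPM in Met1 and 777 to 826 CPM in Met2, and Cdx2, the factor that specifies intestine, at 38.9 to 56.5 CPM and 72.6 to 111 CPM. Its relative Cdx1 was nearly absent from both, at no more than 0.274 CPM. Other markers were mostly lower. Cdh1 stood at 391 to 512 CPM in Met1 and 216 to 334 CPM in Met2 (log2 change -0.69, adjusted p = 0.0633, edgeR quasi-likelihood test). The log2 changes of Vil1, Cdh17, Krt18 and Krt8 were -0.93, -0.52, -0.47 and -0.2, and that of Krt19 was 0.25. The groups overlapped in Vil1 (211 to 312 CPM and 65.9 to 220 CPM). None of these other markers passed the adjusted threshold of 0.05.

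Met2 was the most variable group, and 1 library accounted for the excess. The coefficient of variation between libraries, from the common dispersion of edgeR, was 0.508 in Met2, 0.326 in Met1 and 0.333 in Met2 without replicate 1. It was 0.315 in Met3, 0.289 in Primary2 and 0.222 in Primary3. In the main fit of all 15 libraries it was 0.343, so the common spread used by the main test lay below that of Met2. The SD of the log2 differences across genes was 1.29 and 1.39 between Met2 replicate 1 and Met2 replicates 2 and 3, against 0.906 between replicates 2 and 3. From the 3 Met1 libraries, Met2 replicate 1 differed by 1.21, 1.43 and 1.26, so it lay no nearer to its own group than to Met1. Results are therefore also given without Met2 replicate 1, for gene lists where that changes the count.

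Met2 libraries held more ribosomal RNA than Met1 libraries. The gene CT010467.1, annotated in ribosomal RNA, took 2.01%, 3.56% and 3.73% of the counts in Met1 replicates 1 to 3 and 6.33%, 6.24% and 7.52% in Met2 replicates 1 to 3. The groups did not overlap, and the means were 3.1% ± 0.948 and 6.7% ± 0.714 (SD, n = 3 each). The difference of 3.6 percentage points had p = 0.1 in an exact two-sided permutation test, the smallest p that 3 against 3 libraries can give. It was 3.78 points without Met2 replicate 1. Met3 (3.38% to 4.09%) and Primary2 (3.74% to 3.83%) lay near the upper end of Met1, and Primary3 spanned both groups (3.53%, 6.59% and 7.03%).

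Other RNAs that carry no poly(A) tail were also higher in Met2, although the labels give poly(A) selection. Rn7sk, the 7SK RNA that holds back transcription elongation, stood at 18.7, 26.7 and 29.5 CPM in Met1 and at 142, 102 and 165 CPM in Met2 (log2 change 2.45, SE 0.32, adjusted p = 0.00269, edgeR quasi-likelihood test). Every Met2 library exceeded every Met1 library. Primary3 held 61.7, 116 and 120 CPM of it, Primary2 40.5 to 70.2 CPM and Met3 57.7 to 96 CPM. Met1 thus stood below every other group. Rn7s1, the RNA of the signal recognition particle, rose from 73.2, 138 and 150 CPM to 537, 500 and 619 CPM (2.20, SE 0.31, adjusted p = 0.00318). Met1 was again the lowest group, with Primary2 at 204 to 287 CPM, Met3 at 268 to 352 CPM and Primary3 at 268 to 595 CPM. Of 11 small nuclear and structural noncoding RNAs tested, 9 rose and 0 fell, with a median log2 change of 2.2. Of 28 replication-dependent histone genes, whose mRNAs also end without a tail, 17 rose and 0 fell, with a median of 1.32. The histone count was 8 without Met1 replicate 1, 4 without Met1 replicate 2, 15 without Met2 replicate 1, 11 without Met2 replicate 2 and 7 with the length correction. The ribosomal covariate left no call among the histone genes and 1 among the 11 small RNAs, and with the length correction 7 of the 11. The summed level of the histone genes was 130, 148 and 178 CPM in Met1 and 131, 225 and 283 CPM in Met2. Met2 replicate 1 thus lay at the level of Met1 in the histone sum. Over all 14925 genes tested 8.7% were called higher, 7.57% were called lower and the median log2 change was 0.0312.

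Short transcripts were called higher in Met2 more often than long ones. Among protein-coding genes whose longest annotated transcript is under 1000 bases, 226 rose and 16 fell of 619 tested (36.5% and 2.58%), with a median log2 change of 0.50. Among those of 8000 bases and over, 28 rose and 174 fell of 701 (3.99% and 24.8%), with a median of -0.38. The shift was present in each Met2 library: the median difference of the short class from the Met1 mean was 0.54, 0.51 and 0.40 in replicates 1 to 3. In Met3, Primary2 and Primary3 it ran from 0.15 to 0.51, and each Met1 library against the other Met1 libraries gave -0.11 to 0.18, so Met2 lay clear of Met1. Genes called higher in Met2 had a median transcript length of 1711 bases, genes called lower 5021, and all genes 3023. Because ribosomal RNA, tailless RNAs and transcript length moved with the groups, the main comparison was also run with the ribosomal share as a covariate and with a correction for length. Their part in the results was not tested beyond these 2 fits.

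**Figure D1:**
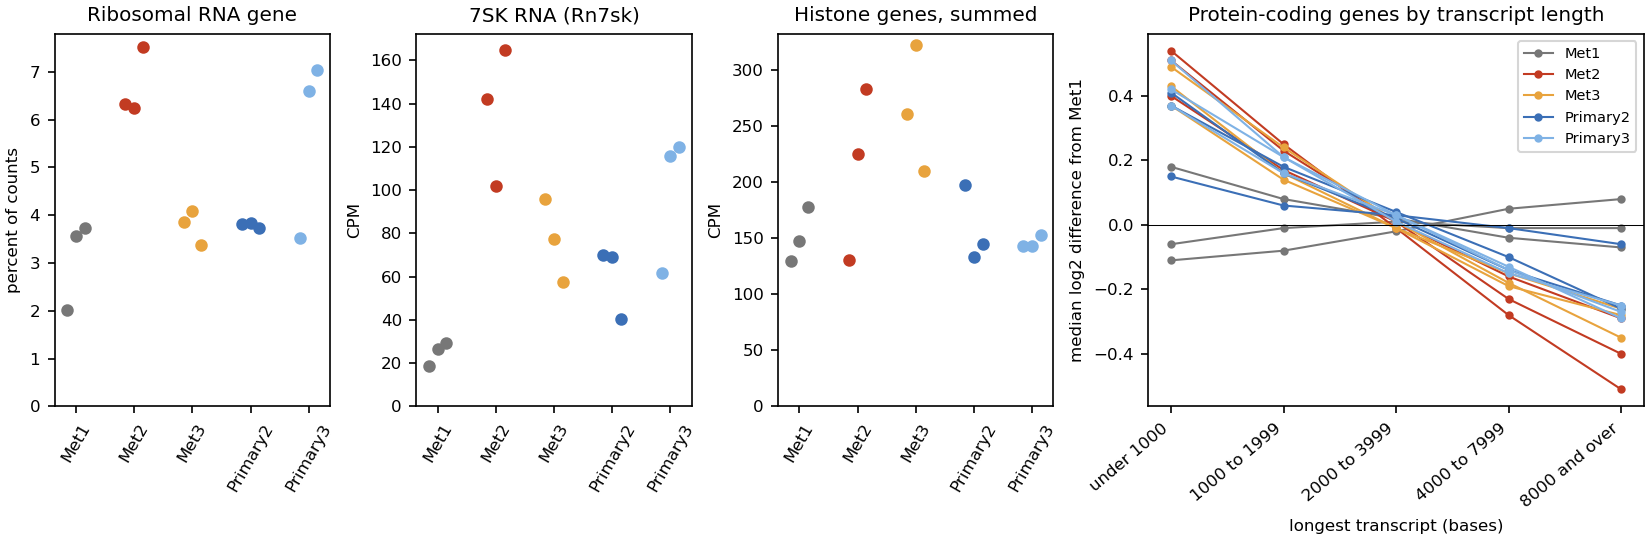
Ribosomal RNA share (percent of counts), 7SK RNA (CPM) and summed histone genes (CPM) in each library of the 5 groups, and the median log2 difference from the mean of Met1 of protein-coding genes in 5 classes of transcript length (1 line for each library). Points are single libraries. All 3 Met2 libraries lie above all Met1 libraries for ribosomal RNA and 7SK, and the lines of the 3 Met2 libraries fall from 0.40 to 0.54 at the short end to -0.29 to -0.51 at the long end.

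Across all genes, 2428 of 14925 (16.3%) differed between Met2 and Met1 at an adjusted p under 0.05, 1298 higher and 1130 lower. Of these, 1122 differed at least 2-fold, 653 higher and 469 lower. The libraries of the groups did not overlap in 2305 of the called genes and in 4874 of all genes tested (32.7%). Without Met2 replicate 1 the number was nearly equal, 2527 of 15372 (16.4%), with 1303 higher (8.48%) and 1224 lower (7.96%), but the genes were partly others. Both fits called 1708 genes, all in the same direction, which is 70.3% of the first set and 67.6% of the second. Of 819 genes called only without it, 785 were also tested with it, and in 346 of these (44.1%) Met2 replicate 1 lay within the range of Met1. It did so in 4076 of all 14925 genes tested (27.3%) and in 76 of the 2428 (3.13%), whose calls used that library.

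The number of calls depended on how the spread was estimated and on single libraries. With only the 6 libraries in the fit, 14 genes were called (2 higher, 12 lower), and 3374 had an unadjusted p under 0.05. With the ribosomal share as a covariate 159 were called, 28 higher (0.188%) and 131 lower (0.878%), and without Met1 replicate 2 573 (249 higher, 324 lower). The length correction left 1332 (751 higher, 581 lower). Leaving out Met1 replicate 3 gave 1520, and DESeq2 gave 3425. The calls of all genes named here ended in the fit of the 6 libraries alone, unless they are among its 14 genes or were not tested there, and that fit is not repeated at each gene. In the gene lists it called Hoxb13 and Rn7sk alone.

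The genes that held in all 19 alternative fits were 9, all lower in Met2. They are Abhd12, Auts2, Bex1, Mb21d2, Palmd, Pcbd1, Phldb2, Slc23a2 and Sort1, and they were singled out after their values were seen. Abhd12, a lipase of lysophosphatidylserine, stood at 98.7, 99.4 and 97.3 CPM in Met1 and 23.3, 30 and 22.4 CPM in Met2 (log2 change -1.96, SE 0.12, adjusted p = 7.66e-06). Its Primary2 libraries held 34.1 to 37.4 CPM and its Met3 libraries 22.3 to 25.8 CPM, so Met1 stood above every other group. Slc23a2, a vitamin C transporter, was likewise highest in Met1, but there Met3 (39.7 to 61.9 CPM) reached above Primary2 (35.6 to 41.4 CPM). It measured 142, 133 and 114 CPM in Met1 and 44.5, 32.4 and 41 CPM in Met2 (-1.72, SE 0.17, adjusted p = 0.000493). Auts2, a partner of a Polycomb complex, likewise fell from 8.77, 13.8 and 8.69 CPM to 0.067, 0.0645 and 0 CPM, and was at most 1.39 CPM in both primary groups. With 2 counts in Met2 against 625, Auts2 was 227 times as high in Met1 (counting interval from 62.5 up to 1880, adjusted p = 0.0031).

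Palmd and Bex1 showed another order, in which the primary tumours stood with Met1. Palmd, a paralemmin-related protein of the cell cortex, fell from 23.1, 48.9 and 49.4 CPM to 0.67, 0.774 and 0.22 CPM (-6.15, SE 0.50, adjusted p = 0.000139), and held 20.2 to 38.5 CPM in Primary2. Bex1, a small adaptor protein first known from brain, measured 83, 37.4 and 199 CPM in Met1 and 285 to 519 CPM in Primary2. In Met2 it measured 0.134, 0 and 0 CPM. From 6708 counts in Met1 and 2 in Met2, it was 2430 times as high in Met1 (counting interval from 674 up to 20100, adjusted p = 0.000493). Sort1, the sorting receptor sortilin, went from 46.2, 41.9 and 56 CPM to 11.4, 9.22 and 8.44 CPM (-2.31, SE 0.23, adjusted p = 0.000493). Pcbd1, an enzyme of tetrahydrobiopterin recycling and a cofactor of HNF1, went from 29.4, 49.8 and 39.5 CPM to 3.69, 5.41 and 6.46 CPM (-2.93, SE 0.44, adjusted p = 0.00421). Phldb2, which anchors microtubules at the cell cortex, went from 69.4, 103 and 95.2 CPM to 17.2, 17.9 and 22 CPM (-2.23, SE 0.42, adjusted p = 0.00867). Among the 14 genes of the 6-library fit, Cdc42bpa, a kinase that acts on myosin, and Rn7sk were the 2 that rose. Cdc42bpa stood at 10.9, 11 and 11.3 CPM in Met1 and 31.4, 35.2 and 33 CPM in Met2 (1.59, SE 0.23, adjusted p = 0.00389), and that call was lost with the covariate. Hoxb13, the homeobox gene of the distal colon, fell from 120, 86.6 and 93 CPM to 17.6, 19.6 and 18.7 CPM (-2.42, SE 0.36, adjusted p = 0.00389). That call ended with the covariate at 0.0892 (range over alternatives 3.18e-09 to 0.0892).

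Gata6 (ENSMUSG00000005836, GRCm38 chromosome 18, 11052064 to 11085635) was lower in every Met2 library. It stood at 5.96, 28.5 and 21.6 CPM in Met1 and at 1.21, 0 and 0.147 CPM in Met2, with Met2 replicate 1 as the highest of the group. The log2 change was -5.35 (SE 1.05, adjusted p = 0.00995) and -7.94 (SE 1.18, adjusted p = 0.00265, range over alternatives 8.55e-07 to 0.0854) without that library, and the call ended with the covariate. Gata4 (ENSMUSG00000021944, chromosome 14, 63198922 to 63271692) was called higher and was present in 2 of the 3 Met2 libraries, from 0.0501, 0 and 0 CPM to 0, 2.26 and 12.6 CPM. Met2 replicate 1 held no count of Gata4, so the groups overlapped. From 206 counts in Met2 and 1 in Met1, it was 284 times as high in Met2 (counting interval from 50.4 up to 11300, adjusted p = 0.0171). The call ended without Met1 replicate 2 or Met1 replicate 3, with limma-voom and with the covariate (range 0.000237 to 0.284). Apc mRNA fell from 70.1, 84.9 and 75 CPM to 34.7, 44.4 and 49 CPM (-0.84, SE 0.13, adjusted p = 0.00525). Apc is a long transcript, and its call held with the length correction alone and without Met2 replicate 1 alone. It ended with these 2 changes together and with the covariate (range 3.28e-07 to 0.0816). Trp53 (0.37, SE 0.23, adjusted p = 0.294) did not pass the test.

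The 14 largest falls were taken among called genes with no overlap of the groups. They were Bex1, Auts2, Pla2g2f, Ggta1, Igfbp7, Cfb, Efemp1, Ereg, Cldn2, Bend5, Anks4b, Cadps, Scara3 and Ccdc80. Those that encode secreted proteins include Igfbp7, a binding protein of insulin-like growth factors, Efemp1 (fibulin-3), Ccdc80, the complement factor Cfb, the phospholipase Pla2g2f and Ereg, the EGF receptor ligand epiregulin. Ccdc80 measured 30, 28.8 and 75.5 CPM in Met1 and 0.603, 0.838 and 0 CPM in Met2 (-6.49, SE 0.79, adjusted p = 0.00178). Pla2g2f measured 2.55, 12.4 and 12.9 CPM and no count in any Met2 library, a difference of at least 137-fold (adjusted p = 0.0066). Ereg fell from 0.651, 9.06 and 3.93 CPM to 0, 0 and 0.0734 CPM, 196 times as high in Met1 (counting interval from 34.9 up to 7770, adjusted p = 0.0061). In each of these genes the highest Met2 library lay below the lowest Met1 library.

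Cldn2, the pore-forming claudin of crypt tight junctions, stood at 16.7, 170 and 166 CPM in Met1 and 0, 2.77 and 0.22 CPM in Met2 (-6.84, SE 1.15, adjusted p = 0.00695). Anks4b, a scaffold of brush border microvilli, fell from 1.6, 17.5 and 7.91 CPM to 0, 0 and 0.294 CPM (-6.50, SE 1.29, adjusted p = 0.0103). Ggta1, the enzyme of the alpha-gal epitope, measured 6.56, 25 and 18.2 CPM against 0, 0.0645 and 0 CPM, 726 times as high in Met1 (counting interval from 130 up to 28700, adjusted p = 0.00049). Of these 14 genes 13 stayed called when any 1 of the 6 libraries was left out. The exception was Cadps, a protein of dense-core vesicle release, whose call ended without Met2 replicate 2. With the covariate 9 stayed called, with limma-voom 8, and with the length correction all 14. In Met3 the same genes reached at most 6 CPM (Cldn2).

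The 14 largest rises, chosen in the same way, were Cryba4, Krt79, Lce3b, Sprr2h, Slurp1, Lypd2, Cldn6, Trpv4, Wnt16, Akr1c18, Bmper, Slitrk6, Ryr3 and Nat8l. Krt79, a keratin of the hair follicle duct, rose from 2.5, 8.8 and 3.29 CPM to 25.7, 234 and 607 CPM (5.90, SE 0.89, adjusted p = 0.00421), with Met2 replicate 1 the lowest of its group yet above all of Met1. Lce3b, of the late cornified envelope, rose from 0, 0.053 and 0 CPM to 1.07, 5.03 and 7.2 CPM, 265 times as high in Met2 (counting interval from 46.9 up to 10500, adjusted p = 0.00562). Sprr2h, a small proline-rich protein, measured 1.05, 0.212 and 0.777 CPM in Met1 and 1.21, 2.45 and 105 CPM in Met2. Its fitted rise of 5.71 (SE 1.42, adjusted p = 0.0204) rested on replicate 3, without which the call ended, as it did without Met1 replicate 2 or 3. Slurp1, a secreted Ly6-family protein of keratinocytes, rose from 1.85, 0.689 and 0.823 CPM to 6.03, 39.4 and 116 CPM (5.58, SE 0.99, adjusted p = 0.00763). Its neighbour Lypd2 rose from 0.751, 0.848 and 0.412 CPM to 77.9, 9.09 and 9.33 CPM (5.58, SE 1.15, adjusted p = 0.0116), highest in the library where Slurp1 was lowest. Both lie within a run of Ly6-family genes on chromosome 15 (GRCm38, Slurp1 at 74724318 to 74728034 and Lypd2 at 74732247 to 74734329). The Ly6 genes around them differed in sign: Ly6a, the surface antigen Sca-1, had a log2 change of 0.78 (SE 0.18, adjusted p = 0.0167), and Ly6f, chosen after its values were seen, one of -3.14 (SE 0.71, adjusted p = 0.0145).

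Trpv4, a calcium-permeable channel gated by warmth and swelling, was the steadiest of the rises. It stood at 1.3, 0.636 and 0.412 CPM in Met1 and 26.5, 25.8 and 65.4 CPM in Met2 (5.64, SE 0.59, adjusted p = 0.000584). It alone of the 14 stayed called with the covariate. Cryba4, a lens crystallin, had the largest fitted rise, 8.15 (SE 1.49, adjusted p = 0.00773), from 0, 0.053 and 0.229 CPM to 1.68, 6.25 and 81.7 CPM. Cldn6, a claudin of early embryonic epithelium, rose from 0.15, 0.265 and 0.0457 CPM to 24.9, 1.1 and 5.8 CPM (6.07, SE 1.03, adjusted p = 0.00715). Wnt16, a Wnt ligand, was high in 1 library only, at 27.3 CPM in Met2 replicate 1 against 0.516 and 0.441 CPM in the others, and its call (adjusted p = 0.0225) ended without that library at 0.185 (range 6.53e-05 to 0.424). Akr1c18 and Bmper were likewise high in 1 library, Met2 replicate 3, at 287 CPM and 17.8 CPM, and their calls ended without it or without any 1 Met1 library. At least 1 single library decided 6 of the 14 calls (Slitrk6, Akr1c18, Bmper, Wnt16, Ryr3 and Sprr2h). Limma-voom kept 2 and the length correction all 14.

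**Figure D2:**
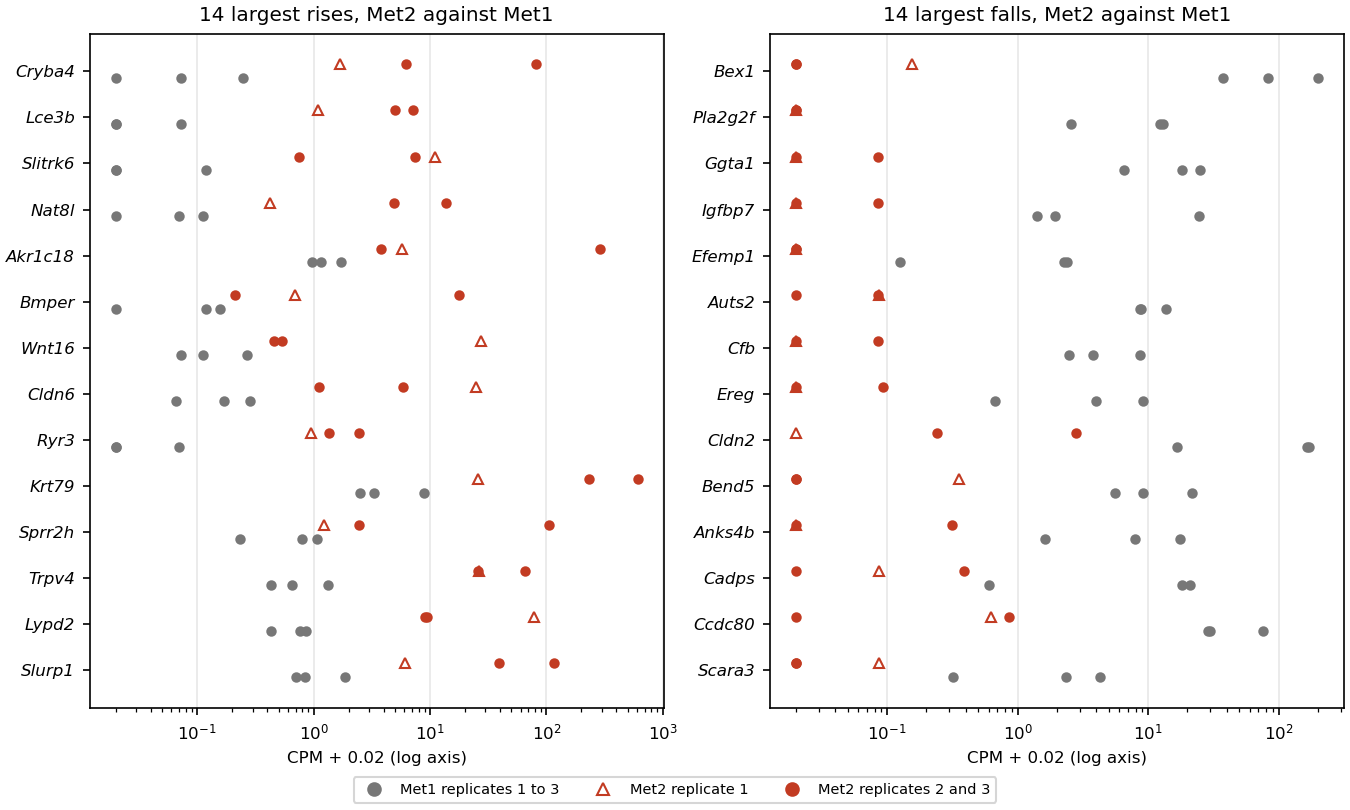
Expression (CPM with 0.02 added, log axis) of the 14 genes with the largest rise and the 14 with the largest fall, 1 row for each gene. Grey points are the Met1 libraries, open triangles Met2 replicate 1 and filled red points Met2 replicates 2 and 3. The groups do not overlap in any row, by the rule that chose the genes, and in the falls most Met2 points lie at or near 0.

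Promoters are shown because Gata6 and Gata4 changed and both bind GATA sites. They are those of Cryba4, the largest fitted rise, of Krt79, a smaller rise, and of Bex1, among the falls. Each is the 250 bases before the RefSeq start in GRCm38.p6, printed 5′ to 3′ on the gene's strand. Capitals mark a GATA word, which is GATAA or GATAG after an A or a T, read on either strand. Cryba4 lies on the minus strand at chr5:112252519-112252768, Krt79 on the minus strand at chr15:101940325-101940574 and Bex1 on the minus strand at chrX:136215514-136215763.
Cryba4: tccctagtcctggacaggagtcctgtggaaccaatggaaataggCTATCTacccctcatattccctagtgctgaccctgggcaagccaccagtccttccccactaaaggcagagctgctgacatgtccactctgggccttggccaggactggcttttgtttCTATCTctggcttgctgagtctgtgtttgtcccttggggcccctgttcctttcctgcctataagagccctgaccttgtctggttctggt
Krt79: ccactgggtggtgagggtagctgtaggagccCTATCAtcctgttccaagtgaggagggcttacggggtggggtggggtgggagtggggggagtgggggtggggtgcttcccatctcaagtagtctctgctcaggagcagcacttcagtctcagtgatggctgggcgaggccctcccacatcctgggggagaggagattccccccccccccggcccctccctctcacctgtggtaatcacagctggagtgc
Bex1: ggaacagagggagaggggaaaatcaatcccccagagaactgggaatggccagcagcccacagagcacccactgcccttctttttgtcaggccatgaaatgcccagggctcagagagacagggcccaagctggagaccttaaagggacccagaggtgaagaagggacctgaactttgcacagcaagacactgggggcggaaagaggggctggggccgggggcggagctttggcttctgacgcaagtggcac
Cryba4 held 2 such words, Krt79 held 1 and Bex1 held 0. Among the named genes with a RefSeq promoter, 3 of 10 rises and 1 of 9 falls held a word, and so did 26.5% of all 32851 promoters. The rises with a word were Cryba4, Krt79 and Slitrk6, and the fall was Bend5. Both rises shown thus held a word, whereas most rises, such as Lce3b, held 0. A match is a description of the letters, and no binding was measured.

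Some genes of the intestinal stem cell and of the Wnt pathway fell. Of 16 stem cell markers tested 8 fell and 0 rose, with a median log2 change of -0.94, against 7.57% of all genes called lower and a median of 0.0312. It was again 8 without Met2 replicate 1, without Met1 replicate 2 it was 2, without Met1 replicate 3 it was 5, and with the length correction 5. With the ribosomal covariate 0 of the 16 were called, and with the covariate and without Met2 replicate 1, 2 fell. Ascl2, the transcription factor that sets stem cell fate, measured 25.4, 23.9 and 33.5 CPM in Met1 and 0.268, 7.67 and 2.2 CPM in Met2 (-3.02, SE 0.71, adjusted p = 0.017). Lgr5, the R-spondin receptor that marks crypt stem cells and was chosen after its values were seen, measured 77.3, 44.8 and 25.5 CPM against 5.9, 19.6 and 22.5 CPM (-1.62, SE 0.45, adjusted p = 0.0305). The groups did not overlap in either gene, and for Lgr5 the lowest Met1 library stood close to the highest of Met2. Sox9, of the crypt progenitors, fell by 1.15 (SE 0.30, adjusted p = 0.0232), a call that ended without Met1 replicate 2 or Met2 replicate 2. Slc12a2, an ion transporter used as a crypt marker, fell from 365, 387 and 274 CPM to 110, 213 and 197 CPM (-0.98, SE 0.21, adjusted p = 0.0122).

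Of 21 Wnt targets and feedback inhibitors 6 fell and 0 rose, against 7.57% lower and 8.7% higher over all genes. The median was -0.62, and of the 15 not called 5 had a fitted change above 0. The fallen genes were the receptor-clearing ligases Znrf3 and Rnf43, the scaffold Axin2, the transcription factor Tcf7, and the stem cell genes Lgr5 and Ascl2. Axin2, also chosen after its values were seen, stood at 199, 212 and 253 CPM in Met1 and 143, 79 and 36.4 CPM in Met2 (-1.36, SE 0.34, adjusted p = 0.0206). Znrf3 measured 34.8, 36.6 and 39.8 CPM against 25.2, 11.7 and 12.7 CPM (-1.16, SE 0.25, adjusted p = 0.0134). In both genes Met2 replicate 1 was the highest of its group. Without that library 11 of the 21 fell, among them the secreted antagonist Dkk2, named after its values were seen. Dkk2 measured 189, 141 and 301 CPM in Met1 and 287, 18.4 and 1.32 CPM in Met2, so Met2 replicate 1 stood at the level of Met1. The count of fallen genes was 3 without Met1 replicate 2, and 4 without Met1 replicate 3 or with the length correction. With the ribosomal covariate 0 were called, and with the covariate and without Met2 replicate 1, 3 fell. In some fits members rose: 1 without Met1 replicate 3, Met2 replicate 2 or Met2 replicate 3, and 2 by DESeq2.

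Markers of differentiated gut cells came to 3 calls of 6 Paneth-type, 2 of 14 absorptive and 1 of 8 goblet genes, where 16.3% of all genes were called. None of them was called with the ribosomal covariate. The Paneth-type genes that fell were Mmp7, the metalloproteinase matrilysin, from 62.4, 192 and 128 CPM to 18.3, 2.51 and 0.808 CPM (-4.14, SE 1.08, adjusted p = 0.0241), Pla2g2a by 4.43 (SE 1.21, adjusted p = 0.029) and Reg4 by 3.71 (SE 1.01, adjusted p = 0.0286). All 3 calls ended without Met1 replicate 2, without Met2 replicate 2 and without Met2 replicate 3, and 2 of them (Pla2g2a and Reg4) without Met1 replicate 1. Reg4 is also a goblet and endocrine cell gene. The absorptive genes that fell were Car2, a carbonic anhydrase of colonocytes (1150, 1130 and 1530 CPM against 157, 245 and 22 CPM, -3.17, SE 0.73, adjusted p = 0.0165), and Cdhr2, of the brush border (-3.33, SE 0.80, adjusted p = 0.0185). An absorptive gene rose when Met2 replicate 1 was left out, and without Met2 replicate 2, 4 fell. The goblet gene was Clca1. It was at 9.8 and 12.6 CPM in Met2 replicates 2 and 3, at 0 in replicate 1 and at no more than 0.229 CPM in Met1, and the call ended without any 1 Met1 library.

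Intestinal transcription factors went both ways, 3 up and 4 down of 22, with a median of -0.36, beside 8.7% higher and 7.57% lower over all genes. Cdx2 rose by 0.92 (SE 0.25, adjusted p = 0.0274) and Klf4, of differentiating surface cells, by 1.17 (SE 0.31, adjusted p = 0.0268) beside Gata4, whereas Gata6, Ascl2, Sox9 and Foxa3 fell. Cdx2, Foxa3 and Hnf4a are given after their values were seen. Foxa3, a forkhead factor of endoderm, measured 50.3, 63.7 and 48.2 CPM in Met1 and 0.737, 21.2 and 5.43 CPM in Met2 (-2.56, SE 0.76, adjusted p = 0.038). Hnf4a, a nuclear receptor of the enterocyte, was at 21.4, 94 and 33 CPM and 0, 15.6 and 6.98 CPM, with no overlap and an adjusted p of 0.0703. Leaving out Met2 replicate 1 gave 5 up and 7 down, and without Met1 replicate 2, 0 rose and 2 fell. None rose without Met1 replicate 3, and 1 without Met2 replicate 3, and with the ribosomal covariate none of the 22 was called. The Hox genes gave 1 up (Hoxa2, 1.57, SE 0.36, adjusted p = 0.0166) and 1 down (Hoxb13) of 19, 2 up and 1 down without Met2 replicate 1, and none with the covariate.

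Of 19 squamous genes 6 rose and 2 fell, against 8.7% higher and 7.57% lower over all genes, with a median of 0.42. The covariate left 0 up and 2 down. Lypd3, a Ly6-domain protein of suprabasal keratinocytes, rose from 5.86, 1.11 and 0.64 CPM to 7.71, 54.3 and 113 CPM (4.52, SE 0.92, adjusted p = 0.011). Krt6a, a keratin of wounded epithelium, rose from 7.31, 3.55 and 35.2 CPM to 129, 95.1 and 227 CPM (3.29, SE 0.80, adjusted p = 0.0195). Both calls ended without Met1 replicate 2, where no squamous gene was called higher, and the counts of risen genes were 2 without Met1 replicate 1, Met1 replicate 3 or Met2 replicate 3, 3 without Met2 replicate 2 and 7 without Met2 replicate 1, where 3 fell. With the length correction 3 rose. Dsg2, a desmosomal cadherin, fell from 272, 346 and 290 CPM to 104, 125 and 71.9 CPM (-1.59, SE 0.20, adjusted p = 0.00178). Ivl (involucrin), the precursor of the cornified envelope, fell as well (-3.35, SE 0.81, adjusted p = 0.0191). Of 15 gastric and foregut genes 2 rose and 4 fell, with a median of 0.47. The number that rose was 4 without Met2 replicate 1, 0 without Met1 replicate 1 or 2, and 1 without Met1 replicate 3 or Met2 replicate 3. With the covariate 0 rose and 1 fell. Tff1, a trefoil peptide of surface mucous cells, rose from 1.8, 3.66 and 4.89 CPM to 30.2, 60.4 and 203 CPM (4.82, SE 1.16, adjusted p = 0.0185). Ctse (cathepsin E) fell from 6.36, 24.8 and 61.9 CPM to 0.67, 0.774 and 0.0734 CPM (-5.90, SE 1.06, adjusted p = 0.00763), and Cldn18, the stomach claudin, by 4.95 (SE 0.90, adjusted p = 0.00763).

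Targets of the YAP and TAZ coactivators gave 7 down and 2 up of 24, and again 7 and 2 without Met2 replicate 1, with a median of -0.49. Over all genes 7.57% were called lower and 8.7% higher. The covariate left 4 down and 0 up. No target rose without Met1 replicate 2, and 1 rose without Met1 replicate 1, Met1 replicate 3 or Met2 replicate 3. Ccn2, the matricellular protein CTGF, measured 103, 755 and 453 CPM in Met1 and 30.1, 63.1 and 19.8 CPM in Met2 (-3.53, SE 0.68, adjusted p = 0.00944). Clu, the secreted chaperone of revival stem cells, measured 89.5, 521 and 411 CPM against 33, 47.7 and 17.3 CPM (-3.38, SE 0.55, adjusted p = 0.00565). Tead1, the DNA-binding partner of both coactivators, fell by 1.31 (SE 0.23, adjusted p = 0.00748). Met1 replicate 1 was the lowest Met1 library for Ccn2 and Clu, and still above all of Met2. Fetal and regenerative genes gave 6 up and 3 down of 23, with a median of 0.39. Anxa1, a calcium-dependent lipid binder, rose from 1570, 1260 and 1530 CPM to 2610, 3470 and 2560 CPM (0.98, SE 0.20, adjusted p = 0.0106), and Ly6a from 2480, 2790 and 1720 CPM to 3420, 4560 and 4020 CPM. The number that rose was 8 without Met2 replicate 1, 3 without Met1 replicate 1, Met2 replicate 2 or Met2 replicate 3, 2 without Met1 replicate 3 or with the length correction, and 1 without Met1 replicate 2, where 1 fell. With the ribosomal covariate 0 rose and 1 fell.

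Genes of matrix contact and of TGF-beta response fell in part. Of 21 laminin, integrin and invasive markers 8 fell and 3 rose, with a median of -0.59, where 7.57% of all genes were called lower and 8.7% higher. Itgb6, the epithelial integrin subunit that activates latent TGF-beta, was the steadiest, from 23.7, 33 and 34.8 CPM to 9.05, 12.1 and 7.93 CPM (-1.65, SE 0.22, adjusted p = 0.00269). Timp3, a metalloproteinase inhibitor, measured 4.71, 16.3 and 107 CPM against 0.804, 1.29 and 1.1 CPM (-5.32, SE 1.03, adjusted p = 0.00964). The count of fallen genes was 2 without Met1 replicate 2, 4 without Met2 replicate 3, and 5 without Met1 replicate 3 or Met2 replicate 2 or with the length correction. Without Met2 replicate 1, 6 fell and 4 rose, and with the ribosomal covariate 4 fell and 0 rose. None rose when any 1 Met1 library or Met2 replicate 3 was left out, and 1 without Met2 replicate 2 or with the length correction. Of 20 TGF-beta targets 6 fell and 0 rose, with a median of -0.88, among them the basement membrane collagen Col4a1 (-1.58, SE 0.38, adjusted p = 0.0182). Without Met1 replicate 2, 2 fell, with the covariate 3, and 4 when any other library but Met1 replicate 1 was left out or with the length correction. Of 10 mesenchymal transition genes 1 rose (Snai1) and 1 fell (Cald1), with a median of 1.07. When Met2 replicate 1 was left out, 2 rose and 4 fell, and the median turned to -1.63. With the length correction or the covariate none was called. Of 21 epithelial junction and keratin genes none was called in the main fit, and 2 rose without Met2 replicate 1. In other fits members fell: 1 without Met2 replicate 2, 2 without Met2 replicate 3, 3 with the replicate block and 4 by DESeq2.

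Among signalling and stress lists, falls came to 5 of 22 genes of MAPK output and 5 of 28 of the unfolded protein and amino acid response, against 7.57% over all genes. Of the 22 genes of MAPK output, which includes feedback inhibitors of the pathway, 5 fell and 0 rose, with a median of -0.36. Spred2, such an inhibitor, measured 46.7, 57.2 and 58.6 CPM in Met1 and 24.4, 24.3 and 25.8 CPM in Met2 (-1.13, SE 0.18, adjusted p = 0.00489), and was the only 1 of the 5 whose call survived each library left out in turn. Of 12 EGF-family genes Ereg fell and Epgn, the ligand epigen, rose (3.99, SE 1.14, adjusted p = 0.0342, lost without Met1 replicate 2, Met1 replicate 3 or Met2 replicate 3 and with the length correction). Of 26 hypoxia and glycolysis genes 1 was called: Car9, a carbonic anhydrase induced by low oxygen, fell from 86.4, 245 and 102 CPM to 5.97, 8.7 and 2.35 CPM (-4.66, SE 0.87, adjusted p = 0.00867). Of 28 genes of the unfolded protein response list 5 fell, led by Slc7a11, the cystine transporter (125, 290 and 191 CPM against 73.5, 38.7 and 82.5 CPM, -1.64, SE 0.33, adjusted p = 0.0102). The number of MAPK genes that fell was 1 without Met1 replicate 2 or Met2 replicate 2, 2 without Met2 replicate 3 or with the length correction, and 3 without Met1 replicate 3 or with the covariate. It was 4 without Met2 replicate 1, where 1 rose. That of the unfolded protein response was 1 without Met1 replicate 2, 3 without Met2 replicate 1 or 2 and 2 with the covariate. Of the hypoxia and glycolysis genes 2 fell without Met2 replicate 1, and with the covariate none was called. Sterol and fatty acid synthesis gave 1 up and 3 down of 30, with both regulators, Srebf1 (-0.57, SE 0.10, adjusted p = 0.00809) and Srebf2 (-0.86, SE 0.18, adjusted p = 0.0117), among those that fell. Without Met1 replicate 2, 1 fell, without Met2 replicate 3, 5, without Met2 replicate 1, 3 with none up, and with the covariate none was called.

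Glutathione and xenobiotic genes split by gene, with 5 up and 6 down of 27, where 8.7% of all genes were called higher and 7.57% lower. Mgst3, a microsomal glutathione transferase, rose from 84.6, 76.8 and 87.5 CPM to 166, 209 and 186 CPM (1.17, SE 0.12, adjusted p = 0.00052). Gstt2, a cytosolic one, fell from 13.4, 37.1 and 10.6 CPM to 1.14, 1.03 and 0.514 CPM (-4.49, SE 0.60, adjusted p = 0.00295). The list gave 3 up and 2 down without Met1 replicate 2, 3 up and 3 down without Met1 replicate 3, 2 up and 5 down with the length correction, 7 up and 7 down without Met2 replicate 1, and 1 up and 3 down with the covariate. Claudins gave 3 up (Cldn1, Cldn6 and Cldn9) and 2 down (Cldn2 and Cldn18) of 11, with Cldn9 named after its values were seen, and 1 up and 1 down with the covariate. Cytokines gave Cxcl1, a neutrophil attractant, up from 4.66, 1.86 and 5.03 CPM to 31, 14.4 and 32.3 CPM (2.74, SE 0.52, adjusted p = 0.00883), Csf3 up, and Il15, a growth factor of natural killer cells, down from 3.46, 2.65 and 3.75 CPM to 0.134, 0.129 and 0 CPM (-5.09, SE 0.99, adjusted p = 0.00992), of 23. A further member fell without Met2 replicate 1, and with the covariate none was called.

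Of 30 nuclear genes of oxidative phosphorylation 7 rose and 0 fell, beside 8.7% higher and 7.57% lower over all genes. These genes are short, with a median transcript length of 1591 bases, and with the length correction 0 were called. The number was 1 without Met1 replicate 2, 3 without Met1 replicate 1, 4 without Met2 replicate 2, 5 without Met2 replicate 1 and 0 with the covariate. Ndufa1, a small subunit of complex I, rose from 32.9, 31.3 and 36.1 CPM to 73.3, 58.7 and 50.1 CPM (0.86, SE 0.15, adjusted p = 0.00752). The abundant Cox7b, a small subunit of cytochrome oxidase outside that list, behaved alike, from 164, 156 and 162 CPM to 275, 287 and 258 CPM (0.77, SE 0.11, adjusted p = 0.00382). Its call held with the length correction and was lost with the covariate. In the main fit no gene was called among 37 of cell cycle and replication, 20 of MHC class I presentation and 33 interferon-stimulated genes. Without Met2 replicate 1 the numbers were 0, 2 and 1. Other fits also called members. Of the cell cycle genes 1 rose with the replicate block and 1 fell without Met2 replicate 2. An MHC gene rose without Met1 replicate 1, and an interferon-stimulated gene fell without Met2 replicate 2. DESeq2 called 1 up and 2 down, 1 up and 1 down, and 0 up and 1 down in the 3 lists. Mitochondrially encoded genes gave 1 up and 2 down of 13, p53 targets 2 up of 20, stress and early response genes 1 up and 1 down of 22, cholangiocyte markers 2 down of 10, and tuft cell genes 0 of 6. The fit without Met2 replicate 1 changed these counts: the cholangiocyte markers gave 2 up and 1 down, the stress and early response genes 3 up and 1 down, the p53 targets 2 up and 1 down, the mitochondrially encoded genes 1 up and 0 down, and the tuft cell genes 1 down. With the covariate 1 mitochondrially encoded gene rose and 1 stress and early response gene fell, and none of the p53, cholangiocyte or tuft cell genes was called. No p53 target was called without Met1 replicate 1, Met1 replicate 2 or Met2 replicate 2. No stress and early response gene was called without Met1 replicate 2, Met1 replicate 3 or Met2 replicate 3, and no cholangiocyte marker without Met1 replicate 2 or Met2 replicate 2.

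Single libraries ended calls of genes named here. Met1 replicate 2 decided most: without it the calls of Akr1c18, Anxa1, Axin2, Bmper, Cald1, Cdhr2, Cdx2, Clca1, Cldn1, Cldn9, Col4a1, Csf3, Epgn, Foxa3, Gata4, Hoxa2, Ivl, Klf4, Krt27, Krt6a, Lgr5, Ly6f, Lypd3, Mmp7, Pla2g2a, Reg4, Rnf43, Ryr3, Slc12a2, Slitrk6, Snai1, Sox9, Sprr2h, Srebf2, Tff1, Tie1, Trp53i11 and Wnt16 ended. Without Met1 replicate 1 those of Akr1c18, Alb, Bmper, Clca1, Cldn9, Foxa3, Krt6a, Lgr5, Pla2g2a, Reg4, Snai1, Tff1, Tie1 and Wnt16 ended, and without Met1 replicate 3 those of Akr1c18, Axin2, Bmper, Cald1, Cdx2, Clca1, Cldn9, Epgn, Foxa3, Gata4, Klf4, Krt27, Rnf43, Ryr3, Sprr2h, Tie1 and Wnt16. Without Met2 replicate 1 the call of Wnt16 ended. Without Met2 replicate 2 those of Alb, Axin2, Cadps, Cald1, Cdx2, Cldn9, Hoxa2, Krt27, Mmp7, Pla2g2a, Reg4, Sox9 and Tie1 ended, and without Met2 replicate 3 those of Akr1c18, Alb, Bmper, Cald1, Cdhr2, Cdx2, Epgn, Foxa3, Klf4, Krt27, Mmp7, Pla2g2a, Reg4, Rnf43, Snai1, Sprr2h and Tie1. Among the 99 genes named here that were called, the covariate kept Abhd12, Auts2, Bex1, Ccdc80, Ccn2, Cfb, Cldn1, Cldn2, Clu, Ctse, Dsg2, Ereg, Ggta1, Gstt2, Igfbp7, Itgb6, Ivl, Mb21d2, Mgst3, Palmd, Pcbd1, Phldb2, Pla2g2f, Rn7s1, Slc23a2, Slc7a11, Sort1, Spred2, Timp3 and Trpv4. The length correction ended Cald1, Cdx2, Cldn9, Epgn, Krt27, Lgr5, Ly6a, Ndufa1, Snai1 and Znrf3.

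**Figure D3:**
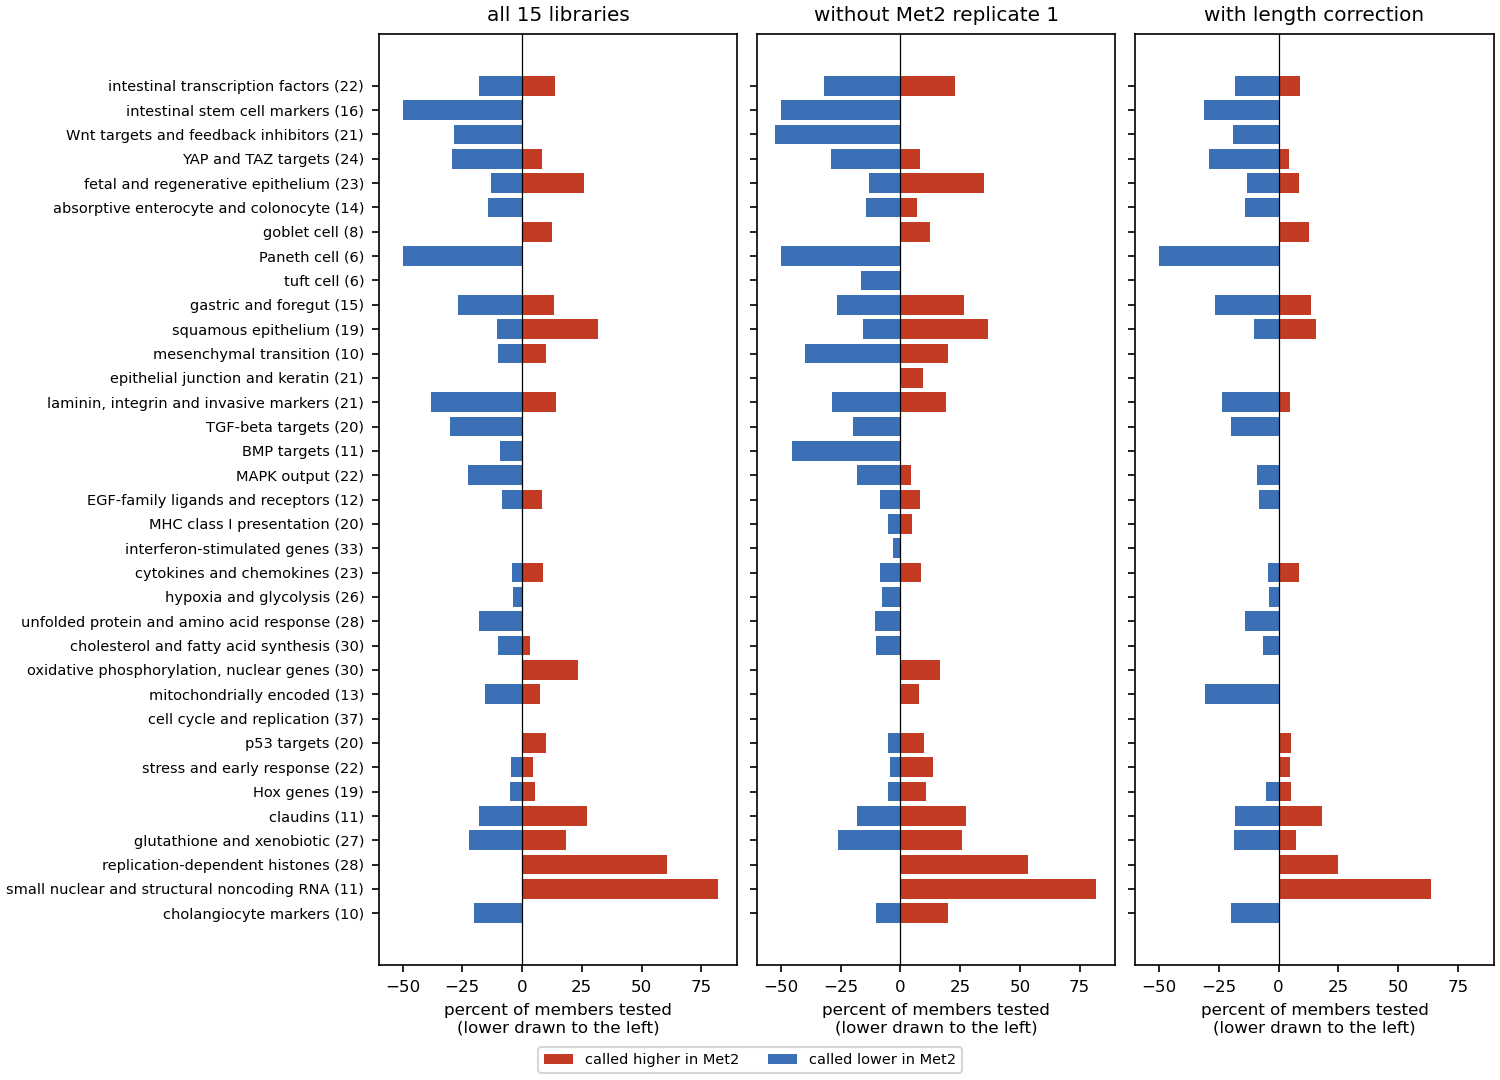
Percent of the tested members of each gene list called higher (red, right) and called lower (blue, left) in Met2 against Met1, with the number tested in brackets. Panels show the fit of all 15 libraries, the fit without Met2 replicate 1 and the fit with the length correction, for lists with 6 or more members tested. Stem cell markers reach 8 of 16 lower in the first 2 panels and 5 in the third, and the bar of nuclear oxidative phosphorylation genes is absent from the third.

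Met2 replicate 1 differed from its sister libraries in many genes. The largest gaps among abundant genes on which the sisters agreed within 2-fold, given as a description, were in Ptn, Gstm7 and Cxcl15 above the sisters and in Trp53i11, Gabrp and Krt27 below. Ptn, the heparin-binding growth factor pleiotrophin, measured 352 CPM in that library, 0.0645 and 0 CPM in replicates 2 and 3, and 5.91, 0.053 and 0.595 CPM in Met1. Gabrp, a GABA receptor subunit, measured 1.01 CPM there, 180 and 171 CPM in its sisters, and 29.6, 8.16 and 91 CPM in Met1. Trp53i11, a p53-inducible gene, had no count there and 50.7 and 60.9 CPM in the sisters. It was called higher (adjusted p = 0.0116) although the groups overlapped, and the call ended without Met1 replicate 2, with limma-voom and with the covariate (range 6.92e-06 to 0.439).

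Among genes called only without Met2 replicate 1, the largest falls were Hs3st3b1, Fetub, Hspb8, Krt17, Chst11 and Rbms3. Hs3st3b1, a heparan sulfate sulfotransferase, measured 7.06, 6.84 and 9.28 CPM in Met1, 9.79 CPM in Met2 replicate 1 and 0 in replicates 2 and 3 (adjusted p = 0.545 with that library and 0.00101 without, range over alternatives 0.00101 to 0.879). Rbms3, an RNA-binding protein, had 7.36, 12.1 and 10.9 CPM in Met1 and 5.83, 0.0645 and 0 CPM in Met2 (adjusted p = 0.251 and 0.00811, range 0.00811 to 0.44). Chst11, a chondroitin sulfotransferase, followed the same pattern at 10.2, 0.0645 and 0 CPM in Met2. Vim and Cdh2, mesenchymal genes named after their values were seen, belong here as well: Vim (vimentin) stood at 11.4, 3.5 and 4.76 CPM in Met1 and 44.4, 0.322 and 0.0734 CPM in Met2, and Cdh2 (N-cadherin) at 0.501, 0.848 and 4.02 CPM and 6.97, 0 and 0 CPM. The BMP targets Id2 and Id3, which restrain basic helix-loop-helix factors (Id3 chosen after its values were seen), measured 359 and 418 CPM in Met2 replicate 1 against 101 and 21.7 CPM for Id2 and 123 and 31.9 CPM for Id3 in its sisters. Without that library 5 of 11 BMP targets fell, against 1 with it and 0 with the covariate. Over all genes 7.96% were called lower without it and 7.57% with it.

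The largest rises called only without it were Krt84, Il5ra, Mrc1, Siglec15, Rptn and Clip4. Rptn (repetin), a protein of the cornified envelope, measured 0.301, 0.106 and 1.14 CPM in Met1 and 0.067, 4.06 and 12 CPM in Met2 (adjusted p = 0.067 with that library and 0.0115 without, range 0.0115 to 0.796). Krt84, a hair and nail keratin, measured 9.92, 0.106 and 1.46 CPM against 0.67, 201 and 21.4 CPM (adjusted p = 0.0774 and 0.0259, range 0.02 to 0.488). Levels in Met3 lay with the sisters for these genes, at 4.93 to 6.81 CPM for Rptn and 20.1 to 78.4 CPM for Krt84, and at most 0.21 CPM for Hs3st3b1.

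**Figure D4:**
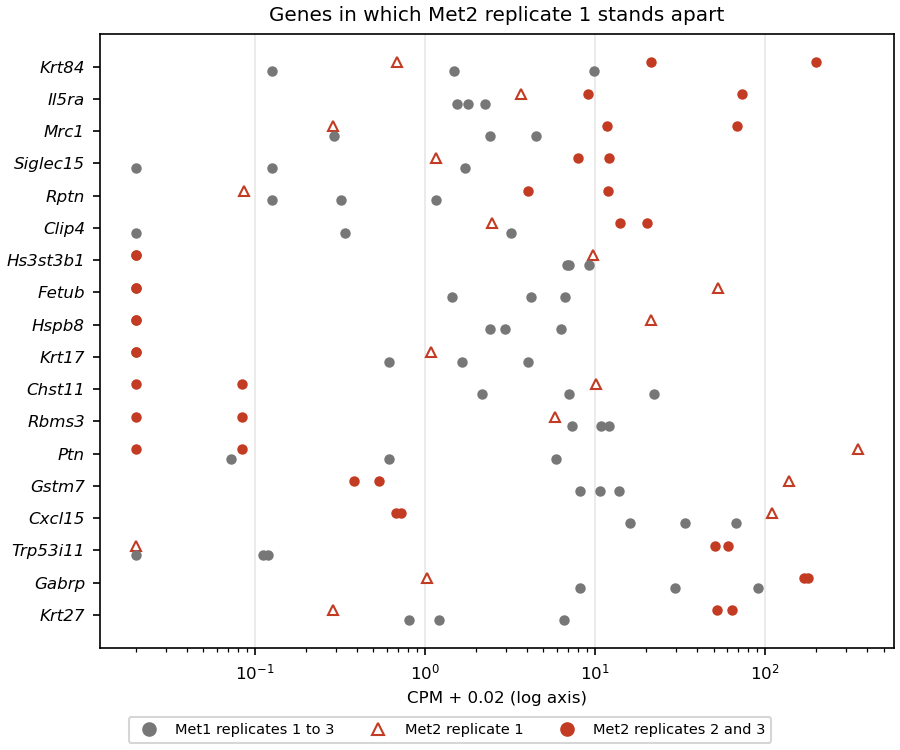
Expression (CPM with 0.02 added, log axis) of the 12 genes called only without Met2 replicate 1 and of the 6 in which that library differs most from replicates 2 and 3. Grey points are Met1 libraries, the open triangle is Met2 replicate 1 and filled red points are Met2 replicates 2 and 3. In Ptn the triangle lies at 352 CPM and the red points at 0.0645 and 0 CPM.

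Genes of chromosome 5 were higher as a body in Met2. Of 1006 tested there 163 rose and 20 fell, with a median log2 change of 0.47, against 1135 and 1110 of 13919 outside it, with a median of 0. The libraries were unlike: the median difference from the Met1 mean was 0.78 in Met2 replicate 1, 0 in replicate 2 and 0.44 in replicate 3. Within Met1 the medians of chromosome 5 lay between -0.02 and 0.02. In Met2 replicate 1 all 5 stretches of 30 Mb were raised, by 0.62 to 0.83, and in replicate 3 the stretches beyond 90 Mb by 0.58. When Met2 replicate 1 was left out, 100 rose and 40 fell. Met3 libraries had medians of 0.47, 0 and 0.30 on chromosome 5, Primary2 libraries 0.52, 0.21 and -0.04, and Primary3 libraries 0.1, 0.07 and 0.13. The named rises Cryba4, Nat8l and Trpv4 lie there, and so do the falls Auts2, Igfbp7 and Ereg. On chromosome 15 Met1 replicate 2 stood 0.51 above the other Met1 libraries, and on chromosome 6 Met2 replicate 3 stood 0.33 below the Met1 mean. The chromosome 6 medians were also negative in Primary2 and Primary3 (-0.32 to -0.25) and in Met3 (-0.24, -0.05 and -0.38). DNA was not measured here.

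**Figure D5:**
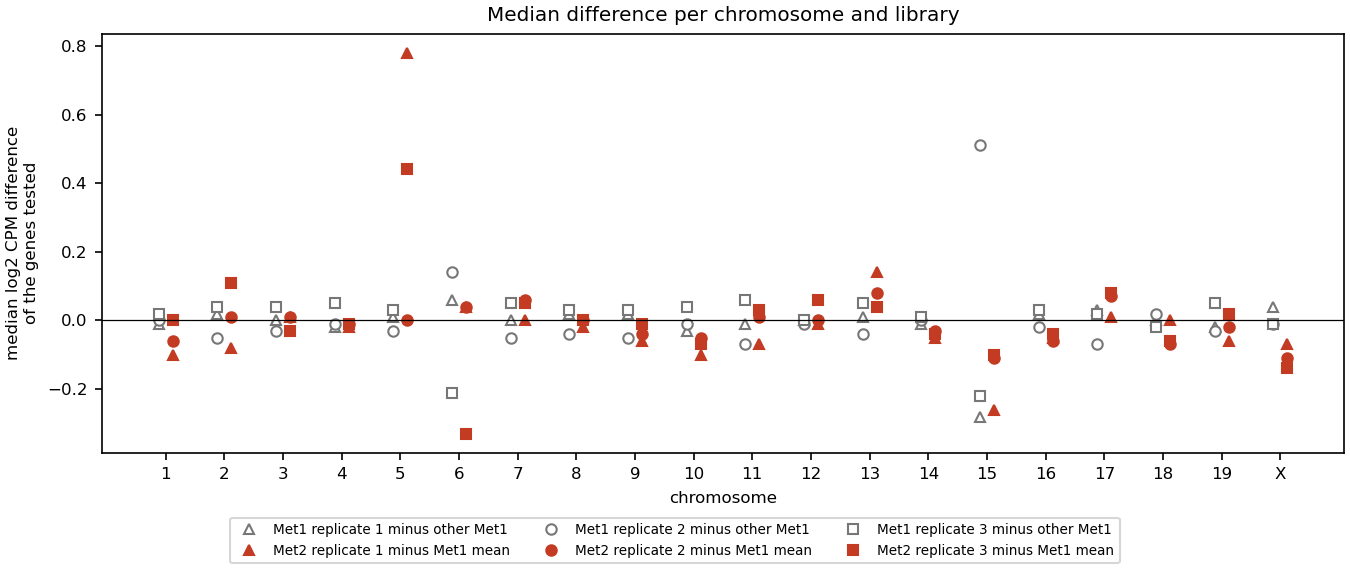
Median log2 CPM difference of the genes tested on each chromosome, for each Met2 library against the Met1 mean (filled) and each Met1 library against the other Met1 libraries (open). Most medians lie near 0, and those of chromosome 5 reach 0.78 in Met2 replicate 1 and 0.44 in replicate 3 and stay at 0 in replicate 2.

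Markers of other cell types were scarce. Alb, the hepatocyte albumin, measured 5.66, 1.01 and 2.38 CPM in Met1 and 0, 0.0645 and 0 CPM in Met2 (184 against 1 counts, 134 times as high in Met1, counting interval from 23.7 up to 5300, adjusted p = 0.0217), a call that ended without Met1 replicate 1, Met2 replicate 2 or Met2 replicate 3. Of 20 hepatocyte markers 4 were tested, the summed level was 48.7 to 79 CPM in Met1 and 10.9 to 38.5 CPM in Met2, and Ttr was at most 0.412 CPM. Fibroblast and stellate markers summed to no more than 1.5 CPM in Met1 and 5.43 CPM in Met2, Cdh5 of endothelium to no more than 0.067 CPM, and Adgre1 of macrophages had no count. Of 18 leukocyte markers 4 were tested with all libraries, and none was called. Leaving out Met2 replicate 1, 2 hepatocyte markers fell and 2 leukocyte markers rose. Over all genes 7.96% were called lower and 8.48% higher without that library. Of 12 endothelial markers 3 were tested and all 3 were called, where 16.3% of all genes were called. None of these 3 calls held with limma-voom or with the covariate. Tie1 rose, and Vwf and Sox17 fell, Vwf from 16.1, 46.1 and 2.1 CPM to 0.804, 1.03 and 0.294 CPM (-4.89, SE 0.88, adjusted p = 0.00763), while Pecam1 stayed at or under 0.514 CPM in both groups. Leukocyte markers summed to 23.1 to 30.4 CPM in Met1 and 10.4 to 29.8 CPM in Met2, with Cd68 at 8.3 to 28.9 CPM and Ptprc at no more than 0.335 CPM. In bulk libraries fewer cells of a type and less RNA in each cell cannot be told apart. The part of these markers in the results was not tested.

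Beside the other steps of the series, Met3 against Met2 gave 41 called genes (0.275%), Met3 against Met1 3499 (23.4%) and Primary3 against Primary2 0 (0%) by edgeR. These comparisons share libraries with Met2 against Met1 or use other groups, and only their own counts are given. Whether the steps differ was not tested. Met3 levels of named genes stood with Met2 in many cases, at 0.108, 0 and 0 CPM for Gata6, 467, 411 and 540 CPM for Krt79 and 39.2, 38.5 and 60.9 CPM for Trpv4. Gata4, at 22.2, 10.3 and 8.86 CPM in Met3, was present in all 3 libraries there.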

How the data were processed

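RNA was sequenced from organoids in 15 libraries, 3 in each of 5 groups, with a directional poly(A) kit per the labels' protocols. The values are estimated counts per Ensembl gene as deposited by the authors, made with Salmon 1.3.0 on mm10 per the submitters' processing notes. How transcripts were summed and rounded is not given in the sources used here. The table held 54418 genes in whole numbers, of which 32481 had a count, and 54166 identifiers matched GENCODE M21 symbols, used also for positions (GRCm38) and transcript lengths. Rows without a symbol held 0.00577% of counts.

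Genes were filtered with filterByExpr (14925 kept, 99.9% of counts). The main test was edgeR 4.0.16 (quasi-likelihood, TMM, all 15 libraries, no covariate, R 4.3.3) with Benjamini-Hochberg adjustment over all genes and a threshold of 0.05. Alternatives were DESeq2 1.42.0, limma-voom (limma 3.58.1), RLE scaling, other filters, the ribosomal share as covariate, a replicate block, each library left out in turn, and, added after seeing the data, a lowess correction for transcript length (alone and without Met2 replicate 1) and the 6-library and covariate fits without Met2 replicate 1. No pair of libraries was a duplicate. Counts were simulated for Met2 against Met1 (13870 genes tested). The test recovered 4.44% of genes changed 1.5-fold, 33.3% at 2-fold, 72.7% at 4-fold and 83% at 8-fold, with 2 false calls among 13686 unchanged genes. The simulated libraries had the spread of the main fit, no library apart from its group and no shift in ribosomal RNA or by transcript length. They therefore cannot show how many calls in the real libraries are false. Counting intervals, and the floor of 3 counts over a group, cover counting error only. Genes with near-identical copies, such as histone, Ly6, Sprr2 and glutathione transferase genes, may share reads and are uncertain.

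The comparison, the genes and the gene lists were chosen with earlier results of these data known. Named genes were the 14 largest rises and the 14 largest falls among called genes with no overlap and an average log2 CPM of at least 1, the 6 and 6 largest called only without Met2 replicate 1, the 4 and 4 most certain with an average of at least 7, the 3 and 3 in which that library stood most apart, up to 4 of each list by p, and Gata6, Gata4, Apc and Trp53. Some genes under this rule are not reported here.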

Additional observations from a re-analysis of the deposited data

How the results depend on the processing

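The number of called genes kept within 1.5 times of 2428 with RLE scaling (2447), DESeq2 (3425), limma-voom (1957), no filter (1911), a CPM filter (2416), the ribosomal RNA gene removed (2412) and the length correction without Met2 replicate 1 (1856). It was 14 with only the 6 libraries compared (2 higher, 12 lower, 14 at least 2-fold), 159 with the ribosomal covariate (28, 131 and 148), 667 with only the libraries compared and without Met2 replicate 1 (338, 329 and 552), 643 with the covariate and without Met2 replicate 1 (181, 462 and 586) and 1332 with the length correction (751 and 581). Leaving out 1 library gave 573 (without Met1 replicate 2) to 2527 (without Met2 replicate 1) called genes, 249 to 1303 higher, 324 to 1224 lower and 370 to 1527 at least 2-fold, and a ribosomal RNA difference of 3.05 to 3.91 percentage points. The 6-library fit has fewer samples; otherwise the cause was not tested. The share called higher, 53.5%, was 14.3% with the 6 libraries, 17.6% with the covariate, 28.1% with the covariate and without Met2 replicate 1, and 43.5% without Met1 replicate 2.

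With the replicate block 2368 genes were called. Same-numbered libraries of Met1 and Met2 correlated at -0.0251, 0.0188 and 0.00829, and not every library correlated best with its own number, so the numbers do not pair the libraries. The block ended the calls of Cald1, Krt27 and Sprr2h.

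Of 2317 gene values under the alternatives, for 123 genes named in the text, 1822 kept direction and side of the threshold, 398 lost and 59 gained a call, and 38 changed sign. The sign changes concern genes that were not called with all 15 libraries. Without Met2 replicate 1, alone, with only the libraries compared, with the covariate and with the length correction, Fetub had log2 changes of -9.22, -9.21, -8.73 and -9.32, Hspb8 -9.15, -9.14, -10.25 and -9.25, Ptn -5.74, -5.75, -0.67 and -5.79, Gstm7 -4.61, -4.61, -4.32 and -4.83, Cdh2 -8.03, -8.02, -11.11 and -7.96, and Vim -4.96, -4.97, -4.81 and -4.97, against positive values with that library. Where Met2 replicates 2 and 3 hold no count these fitted values are no bound. Limma-voom gave -3.11 for Fetub, -3.57 for Hspb8, -1.75 for Gstm7, -2.63 for Cdh2 and -2.22 for Vim. The block gave -0.14 for Fetub and -1.23 for Hspb8. Cdh2 was -2.01 with the covariate and -0.07 without Met1 replicate 1. Cxcl15 was 0.39 with the covariate, 0.58 without Met1 replicate 2 and 0.51 without Met2 replicate 2 or 3, and Id3 0.02 without Met2 replicate 3. Over the 6 fits that leave out 1 library, the log2 changes ran from -9.22 to 2.7 for Fetub, -9.15 to 1.46 for Hspb8, -5.74 to 8.41 for Ptn, -4.61 to 2.67 for Gstm7, -5.83 to 0.58 for Cxcl15, -1.79 to 0.02 for Id3, -8.03 to 1.77 for Cdh2 and -4.96 to 1.85 for Vim.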
